A study of Mus musculus with 24 samples.

Results

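The UDP-glucuronosyltransferases and sulfotransferases examined here are the 38 protein-coding genes, of 35275 genes in the count table, whose symbols begin with Ugt1, Ugt2, Ugt3 or Sult. The family comprised 20 Ugt genes and 18 Sult genes and was chosen by symbol and not by expression. Liver RNA was sequenced in 24 libraries, 4 from each of 6 genotypes, as single 75-base reads. All mice were C57BL/6 males of 8 to 10 weeks that had been fasted for 24 h. The liver-specific deletions were made with Cre recombinase driven by the albumin promoter, which acts in hepatocytes. Tsc1L-/- mice lacked Tsc1, a subunit of the complex that restrains mTorc1, and Cpt2L-/- mice lacked Cpt2, the mitochondrial enzyme needed to oxidize long-chain fatty acids. DKO mice lacked both genes in the liver. Ppara KO mice lacked Pparα, a nuclear receptor for fatty acids, and Cpt2L-/- Ppara KO mice combined this loss with the liver deletion of Cpt2. How these last 2 genotypes were bred is not given in the sources used here. The control libraries are labelled wild type, and the methods of the study describe control animals as littermates with floxed Tsc1 and Cpt2.

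Glucuronidation and sulfation make lipophilic compounds water soluble so that they can be excreted in bile or urine. Ugt enzymes sit in the endoplasmic reticulum and transfer a sugar, usually glucuronic acid from UDP-glucuronic acid, to bilirubin, steroids, bile acids and drugs. Sult enzymes are cytosolic and transfer sulfate from 3′-phosphoadenosine 5′-phosphosulfate (PAPS) to phenols, catecholamines, thyroid hormone, steroids and bile acids. The liver is the main site of both reactions, and several of the genes are targets of nuclear receptors or differ between the sexes.

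The promoters of 6 members are shown first. RefSeq entries on GRCm38.p6, from 250 bases before to 50 bases after the annotated start, were found for 32 of the 38 members, with 34 entries in all. Each was searched on both strands for AGGTCA, the half-site bound by many nuclear receptors. The half-site was present in 9 of the 34 member promoters, and in 16.3% of all 32851 promoters of the same length. Pparα binds a pair of half-sites spaced by 1 base as a heterodimer. AGGTCA repeated in the same direction after 1 base was found in no member promoter and in 0.0396% of all promoters, and the same pair with any base at the fourth position in no member promoter and in 0.381% of all. Ugt2b36, Ugt2b5, Ugt2b37 and Ugt2b38 lie in the Ugt2 cluster of chromosome 5. They are shown because each carried the half-site, in the forward direction, within the last 39 bases before the start. Sult1e1 is shown because it was the member with the largest rise in Ppara KO livers and carried the half-site on the reverse strand, 113 to 108 bases before the start. Ugt3a1 is shown because it was the member with the largest fall there and carried none. Capitals mark AGGTCA on either strand.
Ugt2b36: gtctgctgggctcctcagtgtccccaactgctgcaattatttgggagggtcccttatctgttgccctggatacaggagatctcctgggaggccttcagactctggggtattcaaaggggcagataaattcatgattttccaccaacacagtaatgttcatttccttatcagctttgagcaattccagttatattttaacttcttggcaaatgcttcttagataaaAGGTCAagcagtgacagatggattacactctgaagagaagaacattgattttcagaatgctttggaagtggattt
Ugt2b5: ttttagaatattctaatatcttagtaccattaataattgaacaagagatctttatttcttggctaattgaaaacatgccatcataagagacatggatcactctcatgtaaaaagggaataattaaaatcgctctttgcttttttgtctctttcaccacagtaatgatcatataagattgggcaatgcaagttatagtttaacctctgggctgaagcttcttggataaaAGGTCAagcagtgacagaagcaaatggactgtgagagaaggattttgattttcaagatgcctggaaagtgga
Ugt2b37: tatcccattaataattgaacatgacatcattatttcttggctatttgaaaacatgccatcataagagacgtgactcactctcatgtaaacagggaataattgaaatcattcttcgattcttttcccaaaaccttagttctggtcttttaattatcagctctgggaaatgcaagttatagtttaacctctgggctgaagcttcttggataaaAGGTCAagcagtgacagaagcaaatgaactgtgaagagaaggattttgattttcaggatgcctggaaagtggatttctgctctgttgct
Ugt2b38: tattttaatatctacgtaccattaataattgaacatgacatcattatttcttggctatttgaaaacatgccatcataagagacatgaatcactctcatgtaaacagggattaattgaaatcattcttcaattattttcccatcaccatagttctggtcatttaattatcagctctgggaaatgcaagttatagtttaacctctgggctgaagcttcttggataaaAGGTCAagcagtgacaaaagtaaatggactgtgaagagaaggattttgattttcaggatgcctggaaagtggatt
Sult1e1: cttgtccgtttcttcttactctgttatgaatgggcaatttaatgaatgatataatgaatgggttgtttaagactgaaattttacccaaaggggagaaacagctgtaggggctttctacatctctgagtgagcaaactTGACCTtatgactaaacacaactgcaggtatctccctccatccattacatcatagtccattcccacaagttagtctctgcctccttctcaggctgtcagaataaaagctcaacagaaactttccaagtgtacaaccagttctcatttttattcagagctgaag
Ugt3a1: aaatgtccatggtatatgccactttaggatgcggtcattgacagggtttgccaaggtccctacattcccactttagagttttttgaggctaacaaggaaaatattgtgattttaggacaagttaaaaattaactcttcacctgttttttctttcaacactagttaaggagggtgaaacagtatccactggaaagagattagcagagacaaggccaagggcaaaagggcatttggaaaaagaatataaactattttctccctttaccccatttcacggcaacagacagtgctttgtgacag
These sequences lie at chr5:87092506-87092805 (Ugt2b36), chr5:87140291-87140590 (Ugt2b5), chr5:87254739-87255038 (Ugt2b37), chr5:87424154-87424453 (Ugt2b38) and chr5:87591562-87591861 (Sult1e1), all on the minus strand, and at chr15:9279579-9279878 (Ugt3a1) on the plus strand. The entry of Ugt3a1 lies inside the gene as the deposited table places it, with a start at 9273319, so it is the promoter of only 1 of the annotated starts. In pairwise alignments the promoters of Ugt2b37 and Ugt2b38 were 95.5% identical. Ugt2b5 was 89.5% identical to Ugt2b37 and 90% to Ugt2b38, and it was 70.6% identical to Ugt2b36. These letters describe the windows only and give no evidence of binding.

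Total counts per library ranged from 14470968 to 20371204. Of the 38 members, 23 passed the filter on low counts in the fit of control, Tsc1L-/-, Cpt2L-/- and DKO libraries. In the fit of control, Cpt2L-/-, Ppara KO and Cpt2L-/- Ppara KO libraries 24 passed, Sult1e1 being the added gene. The other 14 were not tested, and 12 members had 5 counts or fewer in every library. Counts were scaled to CPM (counts relative to the library total) with the TMM method, groups are given as mean ± SD (n = 4), and a member is said to have risen or fallen only where the edgeR quasi-likelihood test gave a Benjamini-Hochberg adjusted p under 0.05. The labels name no litters or dates, so the p-values measure the spread between these libraries. Sample numbers in the labels of control replicates 3 and 4 lie close to those of DKO replicates 2 and 3, but what the numbers mark is not given in the sources used here, and shared litters were not tested. Tsc1 was at 36.8 to 39.9 CPM in control livers and 15.5 to 28.6 CPM in Tsc1L-/- and DKO libraries. Ppara was at 13 to 91.9 CPM in the 8 libraries labelled as Ppara KO and at 137 CPM or more in the others. Cpt2 did not differ between libraries labelled Cpt2L-/- and control (log2 fold change −0.11, SE 0.14, edgeR adjusted p = 0.605), and since a deleted exon cannot be seen in a count over the whole gene, this does not check the label. Inside the first set, Cpt2 was higher in Tsc1L-/- than in control livers (log2 fold change 0.51, adjusted p = 0.0375), and in DKO against Tsc1L-/- livers Cpt2 fell by 0.53 (adjusted p = 0.00819) and Tsc1 by 0.56 (adjusted p = 0.00281). Cpt2L-/- Ppara KO replicate 1 stood apart from its group: its chi-square per gene against the other 3 libraries was 161 to 266, beside 57 to 98.1 among them, and its Cpt2 level was 125.5 CPM, beside 31.7 to 39.1 CPM. Ppara KO replicates 1 and 4 differed from the other libraries of their group and from each other by 108 to 165, beside 33.5 between replicates 2 and 3. The 12 control, Tsc1L-/- and DKO libraries did not overlap with the 12 others in 0.742% of genes at a mean of 1 CPM or more, and in no member among the 21 at that level. In 5 genes every library of the first set was at least 5-fold above every library of the second. Cd1d2, for example, was at 11.2 to 60.7 CPM in the first set and 0.0696 to 0.828 CPM in the second. Library set and genotype cannot be told apart in comparisons that cross the sets, which are Cpt2L-/- against control, DKO against Cpt2L-/-, Ppara KO against control and both interactions. Comparisons inside a set are Tsc1L-/- against control, DKO against Tsc1L-/-, and Cpt2L-/- Ppara KO against Cpt2L-/- or against Ppara KO. Summed hepatocyte markers (6 of 6 genes detected, among them Alb) were at 60700 to 80200 CPM in control, 39800 to 64900 in Tsc1L-/-, 27500 to 35200 in DKO, 35900 to 58100 in Cpt2L-/-, 56900 to 82100 in Ppara KO and 42500 to 59600 in Cpt2L-/- Ppara KO libraries. In bulk tissue, fewer cells of a type and less RNA per cell cannot be told apart.

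In control livers, per length, Ugt2b5 was the member with the highest level (361 ± 59.8 FPKM, a level scaled by gene length and library total), followed by Ugt2b36 (240 ± 42.5 FPKM), Sult1a1 (205 ± 37.4 FPKM) and Ugt3a2 (197 ± 17.4 FPKM). Ugt2b36, Sult1a1 and Ugt3a2 overlapped within their SDs. Ugt2b1, Ugt2b34 and Ugt2a3 followed at 111 ± 24.4, 101 ± 16.4 and 91.8 ± 19.1 FPKM, again without a separation beyond their spread. Sult1d1 was the second sulfotransferase (60.9 ± 13.7 FPKM) and Sult5a1 the third (19.6 ± 8.3 FPKM). The highest Ugt1 genes were Ugt1a9 (37.6 ± 22.4 FPKM) and Ugt1a1, the bilirubin transferase (14.1 ± 5.21 FPKM). Of their 75-base windows, 59.4% and 57.7% were shared with another gene, so these levels depend on how shared reads were counted. Sult1e1, the oestrogen sulfotransferase, was at 0.293 ± 0.0848 FPKM. Sult1c1, Sult2a1 to Sult2a6, Sult3a1, Sult4a1, Sult6b1, Ugt1a8 and Ugt2a1 had 5 counts or fewer in every library, and Ugt1a2 had at most 14. Sult2b1 had at most 4 counts in 23 libraries and 75 counts in Ppara KO replicate 4.

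**Figure D1:**
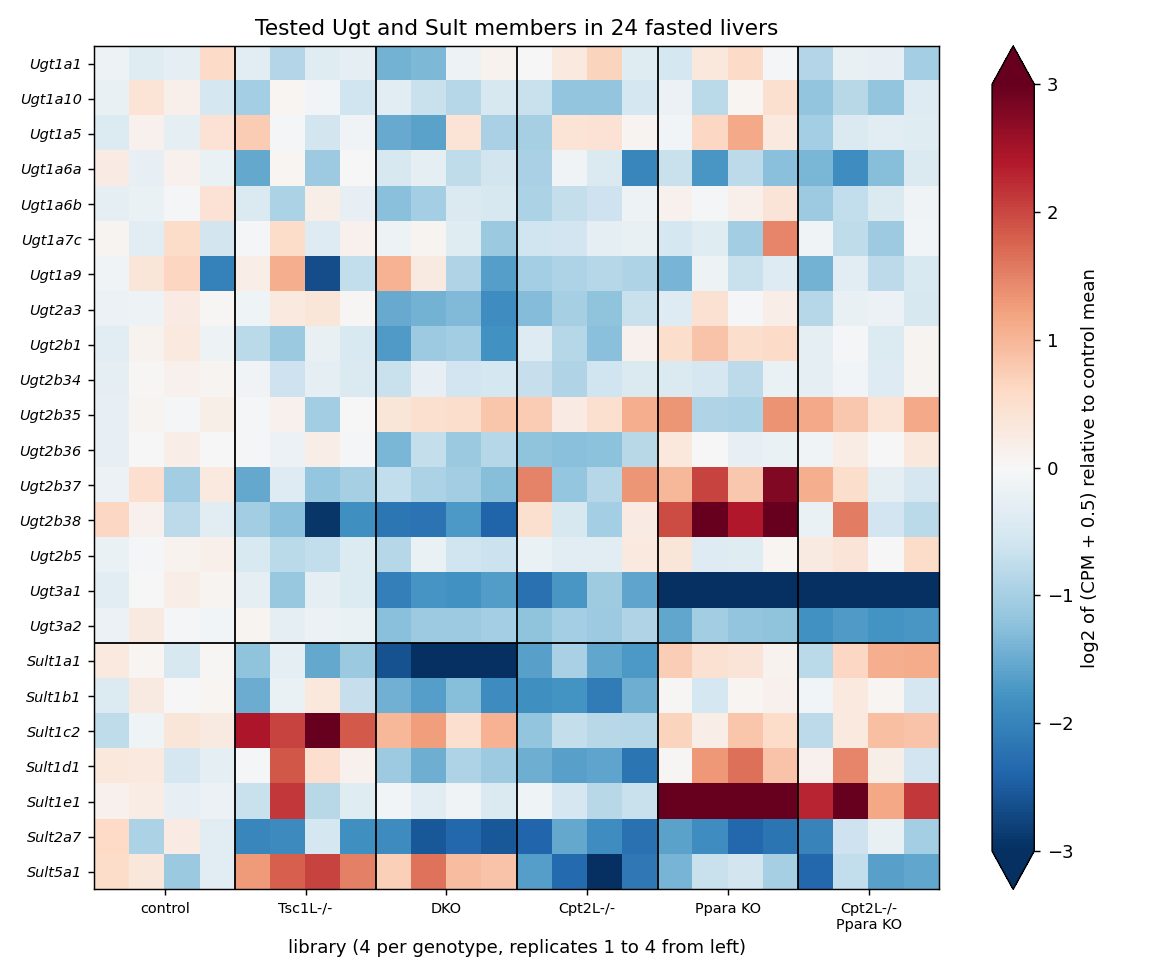
Colour shows log2 of (CPM + 0.5) relative to the control mean for the 24 tested members (vertical) in the 24 libraries (horizontal, 4 per genotype), and colours saturate at 3 in either direction. Ugt3a1 is deep blue in all 8 libraries without Ppara, Sult1e1 is red in the same libraries, and most sulfotransferases are blue in Cpt2L-/- and DKO livers.

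A large part of the family was lower in livers without Cpt2 that kept Ppara. Between Cpt2L-/- and control livers 12 of 23 tested members fell and 1 rose, beside 31% of all genes changed in either direction and 14.9% lower. The members' median log2 fold change was −0.97, and that of all genes −0.02. Within the first library set, 10 of 23 members fell and 1 rose between DKO and Tsc1L-/- livers, beside 32.2% of all genes changed and 15.2% lower, with a median log2 fold change of −0.78 for the members and 0.00 for all genes. Of the 6 tested Sult genes 6 fell in the first comparison and 5 in the second. Sult2a7 is in both counts and passed the low-count filter only through the 4 control libraries and 1 Tsc1L-/- library. Its falls were thus partly set by the filter. Sult1a1, Sult1b1, Sult1c2, Sult1d1, Sult2a7, Ugt2a3, Ugt2b36, Ugt3a1 and Ugt3a2 fell in both comparisons, and Ugt2b35 rose in both. No member passed the test of the difference between these 2 effects, the interaction of Tsc1 and Cpt2 deletion (2.38% of all genes passed, 1.09% upward and 1.28% downward). In edgeR 3 members had an unadjusted p under 0.05, and DESeq2 called 1. In Cpt2L-/- against control, 2 of 6 hepatocyte markers were lower, Serpina1c and Ttr, and 3 of 6 stellate cell markers were lower (summed level 78.4 to 102 CPM against 119 to 169 CPM). In the same comparison 1 of 7 Kupffer cell and 1 of 6 endothelial markers were higher, and 1 of 5 tested cholangiocyte markers was lower. Of the hepatocyte markers, 3 were lower in DKO than in Tsc1L-/- livers, Alb with a log2 fold change of −1.24. Of 7 detected Kupffer cell markers, 4 were lower and 1 (Cd68) was higher (summed level 162 to 277 CPM against 244 to 380 CPM). There 2 of 6 stellate cell markers (61.1 to 84.2 CPM against 83.5 to 134 CPM), 1 of 6 endothelial markers and 1 of 5 tested cholangiocyte markers were lower too. The part of these cells in the member results was not tested.

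Between Cpt2L-/- Ppara KO and Ppara KO livers 6 of 24 tested members fell and 1 rose, beside 25.5% of all genes changed and 12.6% lower. The median log2 fold change was −0.54 for the members and 0.01 for all genes. Ugt2b38, Sult1e1, Ugt1a5, Ugt2b1, Ugt1a6b and Ugt3a2 fell, and Sult2a7 rose. In an edgeR fit of the 8 libraries alone no member was called (8 had an unadjusted p under 0.05, and only 111 genes were called in all). A fit of the 12 libraries of the second set called 6 members, all lower, and DESeq2 called 8. The count was 4 without Ppara KO replicate 2 or without Cpt2L-/- Ppara KO replicate 1. Of 7 detected Kupffer cell markers, 3 were higher and none lower in this comparison (summed level 303 to 414 CPM in Cpt2L-/- Ppara KO and 233 to 295 CPM in Ppara KO livers). Of 6 endothelial markers, 3 were lower and 1 higher (142 to 260 CPM against 289 to 361 CPM), and of 6 stellate cell markers 1 was lower and 1 higher (32.9 to 74.8 CPM against 94.9 to 164 CPM). Of 5 tested cholangiocyte markers 1 was lower, and of 2 tested lymphocyte markers 1 was higher. Their part in the member results was not tested.

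Livers without Tsc1 alone differed from control in 4 members. Between Tsc1L-/- and control livers Sult1c2 and Sult5a1 rose and Ugt2b38 and Ugt2b5 fell, 4 of 23, beside 6.64% of all genes (4.16% higher and 2.48% lower). The count was 2 without control replicate 2 or without control replicate 4. Between DKO and Cpt2L-/- livers, which cross the library sets, Sult5a1 and Sult1c2 rose and Sult1a1, Ugt2b38, Ugt2b37, Ugt2b1 and Ugt2a3 fell, 7 of 23, beside 18.3% of all genes (10.9% higher and 7.4% lower). That count was 4 without Cpt2L-/- replicate 4, DKO replicate 1 or DKO replicate 4. In this comparison 4 of 7 Kupffer cell markers were lower and 1 higher (162 to 277 CPM in DKO and 209 to 377 CPM in Cpt2L-/- livers), 2 of 6 stellate cell and 2 of 6 endothelial markers were lower, and of 6 hepatocyte markers 1 was lower and 1 higher. Of 5 tested cholangiocyte markers 1 was higher. The part of these cells was not tested. DKO was also compared with control inside the first set, an addition made after the data were seen: 13 of 23 members fell and 3 rose, beside 36.4% of all genes (17.1% lower and 19.3% higher). In it Sult1a1 fell by 3.29 on the log2 scale (SE 0.33, edgeR adjusted p = 3.45e-06), Ugt2b38 by 3.13 (adjusted p = 0.0015), Ugt3a1 by 1.85 (adjusted p = 8.7e-06) and Ugt2b36 by 1.0 (adjusted p = 5.45e-05), whereas Sult1c2 rose by 1.12 (adjusted p = 0.0115) and Sult5a1 by 1.08 (adjusted p = 0.0302). The 13 members that fell include Sult2a7, which passed the low-count filter only through control and Tsc1L-/- libraries. Its fall was thus partly set by the filter.

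Between Ppara KO and control livers Sult1e1, Ugt2b38, Ugt2b37 and Sult1d1 rose and Ugt3a1, Sult2a7, Ugt3a2 and Ugt1a6a fell, 8 of 24, which is 33.3% of the tested members beside 29% of all genes (15.9% higher and 13.2% lower). The count was 5 without Ppara KO replicate 2, 8 without replicate 1 and 7 without replicate 4 of that group. In this comparison both tested lymphocyte markers and 1 of 6 stellate cell markers were lower, and of 7 Kupffer cell markers 1 was lower and 1 higher. Higher too were 1 of 5 tested cholangiocyte markers and 1 of 6 endothelial markers, and the part of these cells was not tested. Between Cpt2L-/- Ppara KO and Cpt2L-/- livers, inside the second set, 7 of 24 members rose and 2 fell, beside 18.4% of all genes (10.3% higher and 8.01% lower). Sult1e1, Sult2a7, Sult1d1, Sult1a1, Sult1b1, Sult1c2 and Ugt2b36 rose, and Ugt3a1 and Ugt3a2 fell. Without Cpt2L-/- Ppara KO replicate 1 the count was 10. Of 3 tested markers of red blood cell precursors 2 were higher (355 to 826 CPM in Cpt2L-/- Ppara KO and 126 to 349 CPM in Cpt2L-/- livers), 2 of 7 Kupffer cell markers were higher and 1 of 6 stellate cell markers was lower, and their part in the member results was not tested. The median log2 fold change was 0.40 for the members and 0.03 for all genes. The interaction of Cpt2 and Ppara deletion passed for 8 of 24 members, 7 in the positive direction, beside 24% of all genes (12% in each direction). Sult1e1, Sult2a7 and Ugt1a10 passed the low-count filter through libraries of at most 2 genotypes of a fit, so a difference from the other genotypes was partly set by the filter. Without these genes 3 members rose and 3 fell of 21 in Ppara KO against control, 5 rose and 2 fell in Cpt2L-/- Ppara KO against Cpt2L-/-, and 5 fell in Cpt2L-/- Ppara KO against Ppara KO. The interaction then passed for 7 of 21, 6 in the positive direction. In the first fit, without Sult2a7 and Ugt1a10, 10 of 21 fell in Cpt2L-/- against control (median log2 fold change −0.79) and 9 in DKO against Tsc1L-/-.

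**Figure D2:**
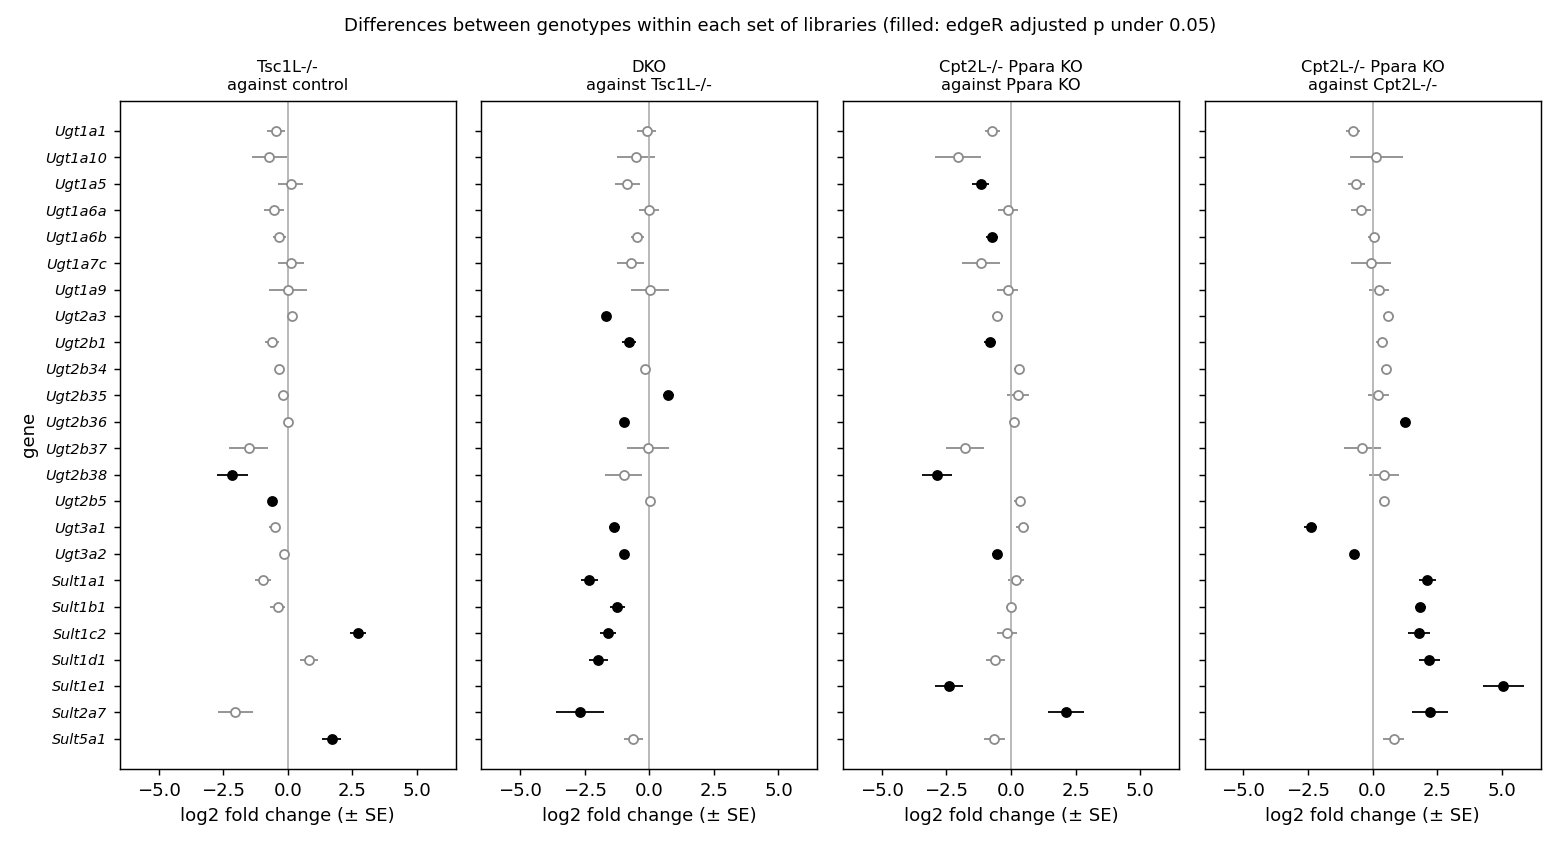
Points give log2 fold changes with SE (horizontal) for the tested members (vertical) in the 4 comparisons made inside a library set, filled where the edgeR adjusted p was under 0.05. Filled points lie mostly left of 0 for DKO against Tsc1L-/- (10 lower, 1 higher) and mostly right of 0 for Cpt2L-/- Ppara KO against Cpt2L-/- (7 higher, 2 lower). Without members that passed the low-count filter through at most 2 genotypes, these counts were 9 lower and 1 higher, and 5 higher and 2 lower.

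Ugt3a1 and Ugt3a2 transfer sugars other than glucuronic acid, Ugt3a1 using UDP-N-acetylglucosamine. They lie next to each other on chromosome 15 (Ugt3a1, ENSMUSG00000072664, 9273319 to 9315032, and Ugt3a2, ENSMUSG00000049152, 9335550 to 9370955, plus strand) and shared 1.43% and 1.51% of their 75-base windows. Ugt3a1 was at 70.1, 87.1, 101 and 93.5 CPM in control livers and 73, 39.7, 71.5 and 66 CPM in Tsc1L-/- livers. It was at 18.1, 25.9, 42 and 28.9 CPM in Cpt2L-/- and 20.9, 25.5, 24.6 and 27.2 CPM in DKO livers. In Ppara KO livers it was at 4.57, 3.62, 4.4 and 3.02 CPM and in Cpt2L-/- Ppara KO livers at 6.88, 4.45, 4.36 and 6.01 CPM. The 8 libraries without Ppara were thus all below the 16 others, and the Cpt2L-/- and control libraries did not overlap. Ugt3a1 fell by 4.49 on the log2 scale in Ppara KO against control (SE 0.26, edgeR adjusted p = 1.17e-08) and by 2.40 in Cpt2L-/- Ppara KO against Cpt2L-/- (SE 0.24, adjusted p = 7.89e-06). It fell by 1.64 in Cpt2L-/- against control (SE 0.22, adjusted p = 3.49e-05) and by 1.36 in DKO against Tsc1L-/- (SE 0.22, adjusted p = 0.000183). The interaction of Cpt2 and Ppara deletion was 2.10 (SE 0.33, adjusted p = 0.000639), since the difference made by Cpt2 loss without Ppara was 0.45 on the log2 scale and did not pass the test. These Ugt3a1 calls held when any single library was left out.

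Ugt3a2 was at 427, 574, 464 and 450 CPM in control livers and 504, 397, 422 and 418 CPM in Tsc1L-/- livers. It was at 206, 235, 224 and 258 CPM in Cpt2L-/- and 201, 225, 223 and 237 CPM in DKO livers. It was at 163, 232, 211 and 207 CPM in Ppara KO and 136, 147, 137 and 141 CPM in Cpt2L-/- Ppara KO livers. Every library that lacked Cpt2 or Ppara was below every control and Tsc1L-/- library, and the 4 that lacked both were the lowest of all 24. The log2 fold change of Ugt3a2 was −1.08 in Cpt2L-/- against control (SE 0.12, edgeR adjusted p = 5.65e-06) and −0.98 in DKO against Tsc1L-/- (SE 0.12, adjusted p = 1.21e-05). It was −1.24 in Ppara KO against control (SE 0.16, adjusted p = 4.43e-05) and −0.71 in Cpt2L-/- Ppara KO against Cpt2L-/- (SE 0.16, adjusted p = 0.00752). Against Ppara KO, Cpt2L-/- Ppara KO livers were lower by a log2 fold change of −0.56 (SE 0.16, adjusted p = 0.0203), a call lost without Ppara KO replicate 2 (adjusted p = 0.0592).

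**Figure D3:**
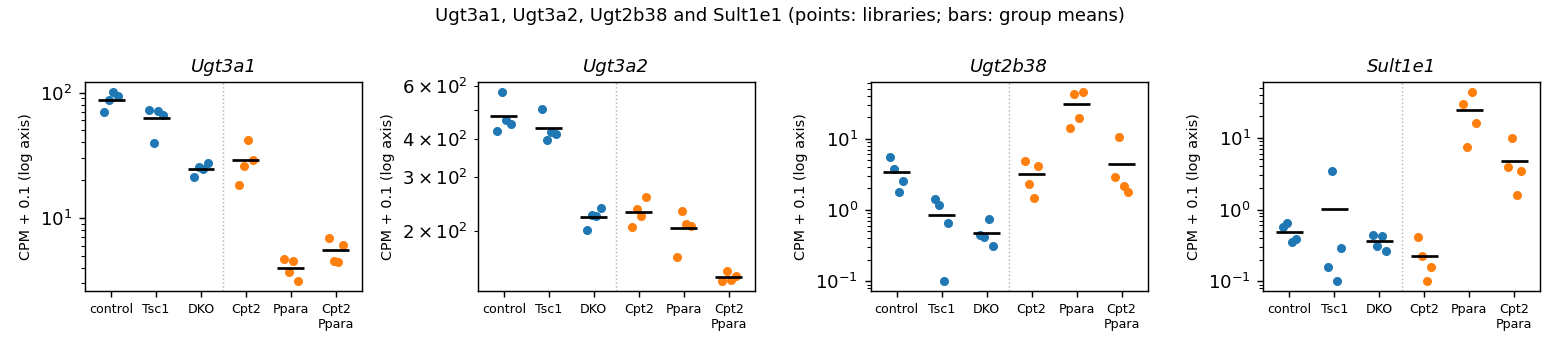
Each panel plots CPM + 0.1 on a log axis for 1 gene in 6 genotypes, with points for libraries, bars for group means and colours for the 2 library sets. The Ppara KO and Cpt2L-/- Ppara KO points lie below all others for Ugt3a1, and the Ppara KO points lie above all others for Ugt2b38.

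Ugt2 enzymes glucuronidate steroids, bile acids and drugs, and their genes lie with Sult1b1, Sult1d1 and Sult1e1 on chromosome 5 between 86889767 and 87591611. Ugt2b5 (ENSMUSG00000054630), the most abundant member, was at 601, 664, 743 and 767 CPM in control livers and 505, 399, 416 and 521 CPM in Tsc1L-/- livers. It was at 600, 549, 561 and 845 CPM in Cpt2L-/- and 383, 603, 462 and 440 CPM in DKO livers. It was at 896, 535, 539 and 721 CPM in Ppara KO and 840, 905, 694 and 1013 CPM in Cpt2L-/- Ppara KO livers. The Tsc1L-/- libraries were all below the control libraries, whereas the other groups overlapped control. The log2 fold change in Tsc1L-/- against control was −0.59 (SE 0.16, edgeR adjusted p = 0.0348), and the call was lost without control replicate 2, 3 or 4 or without Tsc1L-/- replicate 2 or 3 (adjusted p 0.0599 to 0.0956). In the other 8 of the 9 comparisons Ugt2b5 was not called, with log2 fold changes from −0.42 to 0.49 (interactions included). In the added comparison of DKO with control it fell by 0.57 (SE 0.16, adjusted p = 0.0115).

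Ugt2b36 (ENSMUSG00000070704) was at 395, 473, 538 and 467 CPM in control livers and 458, 418, 536 and 459 CPM in Tsc1L-/- livers. It was at 204, 197, 200 and 264.1 CPM in Cpt2L-/- and 181, 286, 215 and 259 CPM in DKO livers. It was at 583, 463, 394 and 411 CPM in Ppara KO and 435, 548, 475 and 580 CPM in Cpt2L-/- Ppara KO livers. All 8 libraries with Ppara and without Cpt2 were below the 16 others. Ugt2b36 fell by 1.14 on the log2 scale in Cpt2L-/- against control (SE 0.15, edgeR adjusted p = 2.15e-05) and by 1.0 in DKO against Tsc1L-/- (SE 0.15, adjusted p = 7.03e-05). It rose by 1.24 in Cpt2L-/- Ppara KO against Cpt2L-/- (SE 0.18, adjusted p = 0.000347), with an interaction of 1.26 (SE 0.26, adjusted p = 0.00299). Each of these 4 calls held when any single library was left out.

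Ugt2b38 (ENSMUSG00000061906) was a low-abundance member except in Ppara KO livers. It was at 5.35, 3.65, 1.7 and 2.49 CPM in control livers and 1.33, 1.08, 0 and 0.561 CPM in Tsc1L-/- livers. It was at 4.75, 2.22, 1.36 and 4.04 CPM in Cpt2L-/- and 0.342, 0.315, 0.652 and 0.214 CPM in DKO livers. It was at 14.2, 42, 19.5 and 45.2 CPM in Ppara KO and 2.82, 10.5, 2.03 and 1.68 CPM in Cpt2L-/- Ppara KO livers. The Ppara KO libraries were above the 20 others, and the Tsc1L-/- and DKO libraries were all below the control libraries. Ugt2b38 rose 9.15-fold in Ppara KO against control (log2 fold change 3.19, SE 0.59, edgeR adjusted p = 0.000953). It fell by 3.01 on the log2 scale in DKO against Cpt2L-/- (SE 0.66, adjusted p = 0.00527). It fell by 2.87 in Cpt2L-/- Ppara KO against Ppara KO (SE 0.58, adjusted p = 0.00578), with a log2 fold change of −3.83 without Cpt2L-/- Ppara KO replicate 2. Its fall in Tsc1L-/- against control (log2 fold change −2.14, SE 0.61, adjusted p = 0.0448) was lost without control replicate 1, 2 or 4, Tsc1L-/- replicate 2 or 4, Cpt2L-/- replicate 2 or 4, or any DKO replicate (adjusted p 0.0511 to 0.122). The interaction of Cpt2 and Ppara deletion was −2.76 (SE 0.81, adjusted p = 0.0229). It was −3.71 without Cpt2L-/- Ppara KO replicate 2 and lost its call without replicate 1 of that group (adjusted p = 0.0503). Ugt2b38 shared 28% and Ugt2b5 30.4% of its 75-base windows with another annotated gene, so reads of these near copies could have been assigned to either.

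Ugt2b37 (ENSMUSG00000057425), the nearest relative by promoter, had means of 1.48 ± 0.804 CPM in control livers and 6.75 ± 4.64 CPM in Ppara KO livers. It rose by 2.19 on the log2 scale (SE 0.73, edgeR adjusted p = 0.0335), a call lost without control replicate 1, 3 or 4 or Ppara KO replicate 2 or 4 (adjusted p 0.0584 to 0.101). Ugt2b37 also fell by 2.37 in DKO against Cpt2L-/- (adjusted p = 0.0333), a call lost without Cpt2L-/- replicate 1 or 4 or any DKO replicate (adjusted p 0.057 to 0.104). Among the 4 genes with the half-site near the start, Ugt2b38 was called in 5 of the 9 comparisons, Ugt2b36 in 4, Ugt2b37 in 2 and Ugt2b5 in 1. Of members whose promoter entry held no half-site, Ugt3a1, Sult1a1 and Sult1c2 were each called in 5 and Ugt1a1 in none.

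Ugt2b35 (ENSMUSG00000035811) was the member that rose after loss of Cpt2 in livers with Ppara. It was at 96.4, 121, 110 and 130 CPM in control livers and 112, 125, 55.6 and 116 CPM in Tsc1L-/- livers. It was at 196, 135, 160 and 242 CPM in Cpt2L-/- and 148, 160, 166 and 205 CPM in DKO livers. It was at 289, 60.6, 58.9 and 292 CPM in Ppara KO and 252, 201, 151 and 251 CPM in Cpt2L-/- Ppara KO livers. The Ppara KO libraries fell into a high and a low pair, replicates 1 and 4 against 2 and 3, and the Cpt2L-/- libraries were all above control. The log2 fold change was 0.65 in Cpt2L-/- against control (SE 0.21, edgeR adjusted p = 0.027), lost without control replicate 1 or 3 or Cpt2L-/- replicate 1 or 4 (adjusted p 0.0535 to 0.102). It was 0.73 in DKO against Tsc1L-/- (SE 0.21, adjusted p = 0.0145), lost without DKO replicate 4 (adjusted p = 0.0504). Neither call held in the fit of all 24 libraries (adjusted p 0.248 and 0.199).

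Of the other Ugt2 genes, Ugt2a3 was at 200 ± 27.4 CPM in control, 222.5 ± 33.5 in Tsc1L-/-, 98.55 ± 20.6 in Cpt2L-/- and 69.5 ± 10.9 CPM in DKO livers. It fell by 1.05 on the log2 scale in Cpt2L-/- against control (edgeR adjusted p = 6.74e-05) and by 1.69 in DKO against Tsc1L-/- (adjusted p = 1.13e-06). Ugt2b34 fell by 0.68 in Cpt2L-/- against control (adjusted p = 0.00137), with an interaction of Cpt2 and Ppara deletion of 0.97 (adjusted p = 0.0113). Ugt2b1 was at 455 ± 52.3 CPM in Ppara KO and 265 ± 39.6 CPM in Cpt2L-/- Ppara KO livers (log2 fold change −0.80, adjusted p = 0.0244), a call lost without Ppara KO replicate 2 or Cpt2L-/- Ppara KO replicate 1 or 3 (adjusted p 0.0562 to 0.0648). In DKO livers Ugt2b1 was at 113 ± 31.1 CPM, against 192 ± 51.3 CPM in Tsc1L-/- livers (log2 fold change −0.78, adjusted p = 0.0385), a call lost without Tsc1L-/- replicate 3 or 4 or DKO replicate 1 or 4 (adjusted p 0.0835 to 0.123). In DKO against Cpt2L-/- the calls of Ugt2b1 (log2 fold change −0.86, adjusted p = 0.0382) and Ugt2a3 (−0.48, adjusted p = 0.038) were lost without DKO replicate 1, 2 or 4 or Cpt2L-/- replicate 4, that of Ugt2b1 also without Cpt2L-/- replicate 1 and that of Ugt2a3 without Cpt2L-/- replicate 2 (adjusted p 0.0537 to 0.142).

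The 9 Ugt1 genes share their last exons on chromosome 1 and differ in the first, which sets the substrate. Between 53.3% and 95.7% of the 75-base windows of each were shared with another gene, so their counts rest on the unshared part and on how the counter treated the rest. Of the 7 that were tested, Ugt1a1, Ugt1a7c and Ugt1a9 were called in none of the 9 comparisons. Ugt1a1 was at 32.4 ± 11.1 CPM in control, 37.2 ± 11.4 in Cpt2L-/- and 35.8 ± 11.2 CPM in Ppara KO livers. Ugt1a9, which glucuronidates phenols and fatty acids, was at 85.4 ± 48.7 CPM in control livers and 88.1 ± 67.8 CPM in DKO livers, and its libraries ranged from 13.2 to 182 CPM in Tsc1L-/- livers. Ugt1a10, Ugt1a6a, Ugt1a5 and Ugt1a6b were each called in 1 of the 9 comparisons, and each of these calls was lost when single libraries were left out. Ugt1a6b was also called in the added comparison of DKO with control (log2 fold change −0.78, edgeR adjusted p = 0.0209), for which no library was left out. Ugt1a10, with at most 16 counts, had a log2 fold change of −2.26 in Cpt2L-/- against control (edgeR adjusted p = 0.0328), lost without replicate 2 or 3 of either group (adjusted p 0.0757 to 0.0957) and −2.95 without Cpt2L-/- replicate 4. Ugt1a6a had −1.13 in Ppara KO against control (adjusted p = 0.0353), lost without control replicate 1, 3 or 4 or Ppara KO replicate 2, 3 or 4 (adjusted p 0.0503 to 0.0982). In Cpt2L-/- Ppara KO against Ppara KO, Ugt1a5 had −1.18 (adjusted p = 0.0206), lost without Ppara KO replicate 3 or Cpt2L-/- Ppara KO replicate 1 (adjusted p up to 0.0747), and Ugt1a6b had −0.74 (adjusted p = 0.0252), lost without Ppara KO replicate 4 or Cpt2L-/- Ppara KO replicate 1 or 2 (adjusted p 0.06 to 0.0788).

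The summed level of the 18 Sult genes was at 358 to 605 CPM in control, 135 to 211 CPM in Cpt2L-/- and 144 to 172 CPM in DKO livers. It was at 358 to 914 CPM in Tsc1L-/-, 654 to 961 CPM in Ppara KO and 365 to 933 CPM in Cpt2L-/- Ppara KO livers. The 8 libraries with Ppara and without Cpt2 were below the 16 others. Most of this sum came from Sult1a1 and Sult1d1.

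Sult1a1 (ENSMUSG00000030711, chromosome 7, 126672865 to 126676432, minus strand) encodes the main phenol sulfotransferase. It was at 357, 304, 211 and 300 CPM in control livers and 127, 239, 100 and 136 CPM in Tsc1L-/- livers. It was at 94.9, 150, 99.7 and 88.1 CPM in Cpt2L-/- and 47.4, 23.4, 31.8 and 18.3 CPM in DKO livers. It was at 493, 403, 384 and 315 CPM in Ppara KO and 168, 449, 620 and 632 CPM in Cpt2L-/- Ppara KO livers. The DKO libraries were below the 20 others, and Cpt2L-/- Ppara KO replicate 1 was well below the rest of its group. Sult1a1 fell by 1.47 on the log2 scale in Cpt2L-/- against control (SE 0.31, edgeR adjusted p = 0.00212), by 2.32 in DKO against Tsc1L-/- (SE 0.32, adjusted p = 6.97e-05) and by 1.82 in DKO against Cpt2L-/- (SE 0.31, adjusted p = 0.00155). It rose 4.33-fold in Cpt2L-/- Ppara KO against Cpt2L-/- (log2 fold change 2.11, SE 0.33, adjusted p = 0.000516), and the interaction of Cpt2 and Ppara deletion was 1.68 (SE 0.45, adjusted p = 0.0135). Tsc1L-/- livers, with a log2 fold change of −0.97 against control, did not pass the test.

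Sult1b1 (ENSMUSG00000029269), which sulfates thyroid hormone and phenols, was at 14.9, 24, 20.1 and 20.8 CPM in control livers and 6.77, 17.2, 25.1 and 12.1 CPM in Tsc1L-/- livers. It was at 5.18, 5.39, 4.31 and 6.93 CPM in Cpt2L-/- and 7.02, 5.99, 7.96 and 5.03 CPM in DKO livers. It was at 20.4, 13.8, 20.8 and 21.9 CPM in Ppara KO and 18.7, 24.7, 20.7 and 14 CPM in Cpt2L-/- Ppara KO livers. Control, Ppara KO and Cpt2L-/- Ppara KO libraries overlapped, and all Cpt2L-/- and DKO libraries were below them. Sult1b1 fell by 1.90 in Cpt2L-/- against control (SE 0.30, edgeR adjusted p = 0.000157) and by 1.24 in DKO against Tsc1L-/- (SE 0.29, adjusted p = 0.00385). It rose by 1.84 in Cpt2L-/- Ppara KO against Cpt2L-/- (SE 0.22, adjusted p = 5.02e-05), and the interaction of Cpt2 and Ppara deletion was 1.90 (SE 0.30, adjusted p = 0.000615).

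Sult1d1 (ENSMUSG00000029273), an amine sulfotransferase of rodents, was at 193, 192, 110 and 126 CPM in control livers and 152, 561, 218 and 170 CPM in Tsc1L-/- livers. It was at 55.5, 50.1, 51.3 and 33.7 CPM in Cpt2L-/- and 72.2, 55.7, 81.5 and 72.2 CPM in DKO livers. It was at 158, 382, 491 and 281 CPM in Ppara KO and 169, 432, 175 and 104 CPM in Cpt2L-/- Ppara KO livers. Cpt2L-/- and DKO libraries were again below all others. Sult1d1 fell by 1.73 in Cpt2L-/- against control (SE 0.37, edgeR adjusted p = 0.00272). It fell by 1.98 in DKO against Tsc1L-/- (SE 0.37, adjusted p = 0.00103), with a log2 fold change of −1.36 without Tsc1L-/- replicate 2, its highest library. It rose by 2.20 in Cpt2L-/- Ppara KO against Cpt2L-/- (SE 0.40, adjusted p = 0.00165). Its rise in Ppara KO against control (log2 fold change 1.07, SE 0.38, adjusted p = 0.0434) was lost without any control replicate, Cpt2L-/- replicate 2 or 3, Ppara KO replicate 2 or 3, or Cpt2L-/- Ppara KO replicate 3 (adjusted p 0.0504 to 0.152).

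Sult1c2 and Sult5a1 were the members that rose after loss of Tsc1. Sult1c2 (ENSMUSG00000023122, chromosome 17), a phenol sulfotransferase, was at 0.951, 1.76, 2.67 and 2.49 CPM in control livers and 12.8, 9.63, 21.5 and 8.29 CPM in Tsc1L-/- livers. It was at 0.587, 1.01, 0.886 and 0.852 CPM in Cpt2L-/- and 4.39, 5.36, 3 and 4.54 CPM in DKO livers. It was at 3.42, 2.33, 3.92 and 3.09 CPM in Ppara KO and 0.941, 2.5, 4.12 and 3.96 CPM in Cpt2L-/- Ppara KO livers. The Tsc1L-/- libraries were above the 20 others, and the DKO libraries were above control and Cpt2L-/- libraries. Sult1c2 rose 6.58-fold in Tsc1L-/- against control (log2 fold change 2.72, SE 0.33, edgeR adjusted p = 6.11e-05) and 5.25-fold in DKO against Cpt2L-/- (log2 fold change 2.39, SE 0.35, adjusted p = 0.000274). It fell by 1.60 in DKO against Tsc1L-/- (SE 0.30, adjusted p = 0.000639) and rose by 1.80 in Cpt2L-/- Ppara KO against Cpt2L-/- (SE 0.42, adjusted p = 0.0088). Its fall in Cpt2L-/- against control (log2 fold change −1.27, SE 0.37, adjusted p = 0.0134) was lost without control replicate 3 (adjusted p = 0.0547).

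Sult5a1 (ENSMUSG00000000739, chromosome 8, 123142847 to 123158315, minus strand) was at 35, 30.6, 10.8 and 19.2 CPM in control livers and 58.8, 83.3, 98.5 and 69.2 CPM in Tsc1L-/- livers. It was at 7.31, 4.37, 2.3 and 5 CPM in Cpt2L-/- and 39.8, 74.7, 45.6 and 43.3 CPM in DKO livers. It was at 8.72, 14.9, 16.2 and 11.7 CPM in Ppara KO and 4.27, 14.1, 7.41 and 7.78 CPM in Cpt2L-/- Ppara KO livers. Tsc1L-/- and DKO libraries were above the 16 others, and Cpt2L-/- libraries were below control. Sult5a1 rose 3.24-fold in Tsc1L-/- against control (log2 fold change 1.70, SE 0.36, edgeR adjusted p = 0.0125). Across the library sets it rose 10.8-fold in DKO against Cpt2L-/- (log2 fold change 3.43, SE 0.40, adjusted p = 0.000124) and fell by 2.35 in Cpt2L-/- against control (SE 0.39, adjusted p = 0.000469). Inside the first set, DKO was at a log2 fold change of −0.62 against Tsc1L-/- livers and did not pass the test. The interaction of Cpt2 and Ppara deletion (1.72, SE 0.56, adjusted p = 0.0337) was lost without control replicate 1 or 2, Cpt2L-/- replicate 2, 3 or 4, Ppara KO replicate 1 or 4, or Cpt2L-/- Ppara KO replicate 2 (adjusted p 0.0545 to 0.0854).

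**Figure D4:**
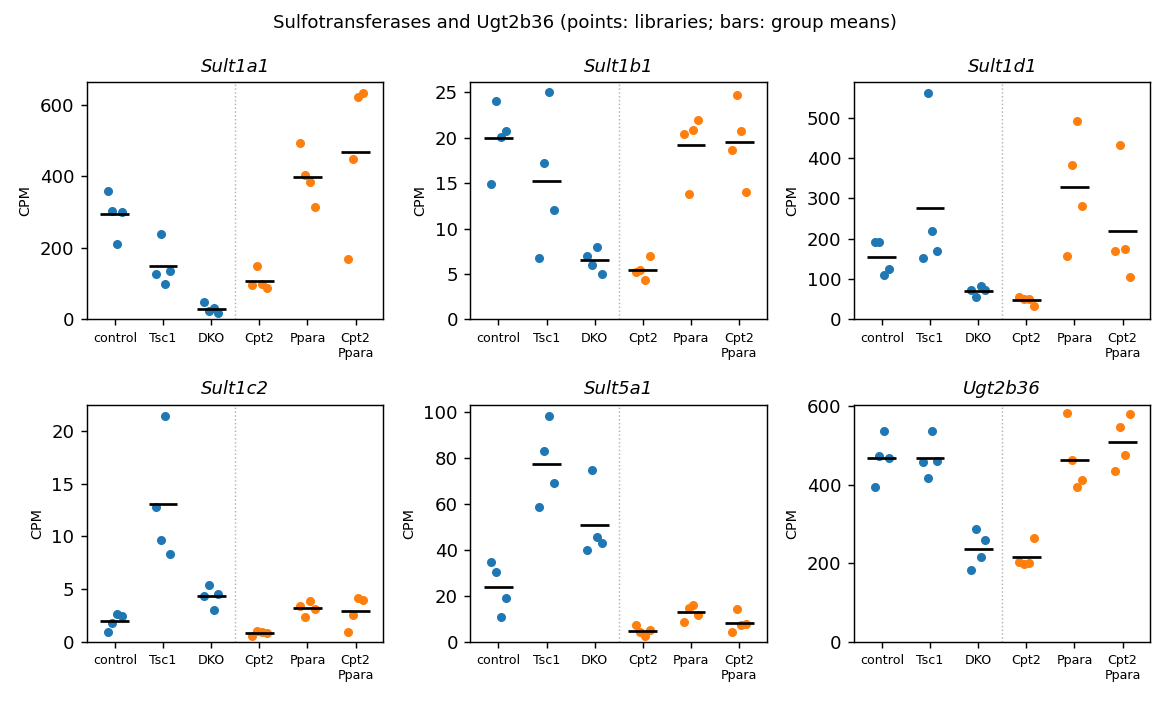
Each panel plots CPM for 1 gene in 6 genotypes, with points for libraries, bars for group means and colours for the 2 library sets. Cpt2L-/- and DKO points are low for Sult1a1, Sult1b1, Sult1d1 and Ugt2b36, whereas Sult1c2 and Sult5a1 are highest in Tsc1L-/- livers (means 13 and 77.5 CPM).

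Sult1e1 (ENSMUSG00000029272), which inactivates oestrogens, was near 0 in livers with Ppara and present in livers without it. It was at 0.475, 0.54, 0.257 and 0.289 CPM in control livers and 0.0605, 3.39, 0 and 0.187 CPM in Tsc1L-/- livers. It was at 0.32, 0.127, 0 and 0.0568 CPM in Cpt2L-/- and 0.342, 0.21, 0.326 and 0.16 CPM in DKO livers. It was at 29.5, 7.3, 43.5 and 15.8 CPM in Ppara KO and 3.84, 9.81, 1.49 and 3.36 CPM in Cpt2L-/- Ppara KO livers. Ppara KO libraries were above every library that had Ppara, and Cpt2L-/- Ppara KO libraries were above every control, Cpt2L-/- and DKO library. Tsc1L-/- replicate 2, at 3.39 CPM from 50 counts, was the one library with Ppara that reached their range. Sult1e1 rose 60.8-fold in Ppara KO against control (log2 fold change 5.93, SE 0.69, edgeR adjusted p = 1.86e-05). It rose by 5.07 on the log2 scale in Cpt2L-/- Ppara KO against Cpt2L-/- (SE 0.78, adjusted p = 0.000523). This value was 6.07 without Cpt2L-/- replicate 1 and 4.41 without Cpt2L-/- Ppara KO replicate 2. In Cpt2L-/- Ppara KO against Ppara KO livers it fell by 2.40 (SE 0.54, adjusted p = 0.00784), and the log2 fold change was −3.06 without Cpt2L-/- Ppara KO replicate 2. The base counts were small, between 0 and 8 in control and Cpt2L-/- libraries. Sult1e1 passed the filter only through the 8 libraries without Ppara, where it is high, so its calls against libraries with Ppara describe these levels and add no support beyond them.

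Sult2a7 (ENSMUSG00000094156, chromosome 7) belongs to the hydroxysteroid and bile acid sulfotransferases and had at most 65 counts in any library. In the first fit it passed the filter through the 4 control libraries and 1 Tsc1L-/- library, and in the second fit through the 4 control and 3 Cpt2L-/- Ppara KO libraries. The filter thus partly set its differences from the other genotypes, and the fold changes, p-values and interaction of Sult2a7 are given as a description. It was at 3.86, 1.01, 2.93 and 1.79 CPM in control livers and 0.242, 0.271, 1.51 and 0.311 CPM in Tsc1L-/- livers. It was at 0.0534, 0.507, 0.295 and 0.114 CPM in Cpt2L-/- and 0.285, 0, 0.0652 and 0 CPM in DKO livers. It was at 0.457, 0.301, 0.0687 and 0.137 CPM in Ppara KO and 0.217, 1.39, 1.97 and 0.932 CPM in Cpt2L-/- Ppara KO livers. Cpt2L-/-, DKO and Ppara KO libraries were all below control. Sult2a7 fell by 3.34 in Cpt2L-/- against control (SE 0.75, edgeR adjusted p = 0.00249), with a log2 fold change of −3.95 without Cpt2L-/- replicate 2. It fell by 3.22 in Ppara KO against control (SE 0.69, adjusted p = 0.00224). The interaction of Cpt2 and Ppara deletion was 5.45 (SE 0.98, adjusted p = 0.00143), and 6.07 without Cpt2L-/- replicate 2. Its log2 fold change of 2.23 in Cpt2L-/- Ppara KO against Cpt2L-/- (SE 0.70, adjusted p = 0.0357) was lost without Cpt2L-/- replicate 1, 3 or 4 or Cpt2L-/- Ppara KO replicate 2 or 3 (adjusted p 0.0794 to 0.108), and was 2.85 without Cpt2L-/- replicate 2. Against Ppara KO the log2 fold change of 2.11 (adjusted p = 0.0352) was lost without Ppara KO replicate 2, 3 or 4 or Cpt2L-/- Ppara KO replicate 2 or 3 (adjusted p 0.0608 to 0.0977). In DKO against Tsc1L-/- it fell by 2.68 (adjusted p = 0.0377). That call was lost without Tsc1L-/- replicate 3 (log2 fold change −1.61, adjusted p = 0.233) or DKO replicate 2, 3 or 4 (adjusted p 0.0815 to 0.0992), and the log2 fold change was −4.50 without DKO replicate 1.

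The enzymes that supply the co-substrates were examined in the same fits. Ugp2 makes UDP-glucose and Ugdh oxidizes it to UDP-glucuronic acid. Ugdh was at 179.5, 214, 146 and 204 CPM in control livers and 458, 301, 335 and 502 CPM in Cpt2L-/- livers, and at 415, 585, 611 and 497 CPM in DKO livers. It rose by 1.07 on the log2 scale in Cpt2L-/- against control (SE 0.20, edgeR adjusted p = 0.00055) and by 1.37 in DKO against Tsc1L-/- (SE 0.20, adjusted p = 6.24e-05), without overlap between groups. Ugdh in Ppara KO livers ranged from 74.1 to 512 CPM and was not called there. Ugp2 was at 241 ± 40.1 CPM in control livers and 705 ± 61.4 CPM in Cpt2L-/- Ppara KO livers, and it rose by 1.52 in Cpt2L-/- Ppara KO against Cpt2L-/- (SE 0.20, adjusted p = 0.000127). Papss1 and Papss2 make PAPS. Papss2 was at 181.5 ± 23.8 CPM in control, 226 ± 54.8 in Tsc1L-/-, 88.4 ± 12.5 in Cpt2L-/- and 86.6 ± 3.85 CPM in DKO livers. It fell by 1.06 in Cpt2L-/- against control (adjusted p = 6.69e-05) and by 1.39 in DKO against Tsc1L-/- (adjusted p = 5.67e-06). Papss1 fell by 1.07 in Cpt2L-/- against control (adjusted p = 0.000382) and rose by 1.46 in DKO against Cpt2L-/- (adjusted p = 0.000103). After loss of Cpt2 in livers with Ppara, Ugdh was thus higher and Papss2 lower, as was Slc26a1, a sulfate transporter (log2 fold changes −1.45 and −1.52, both called).

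**Figure D5:**
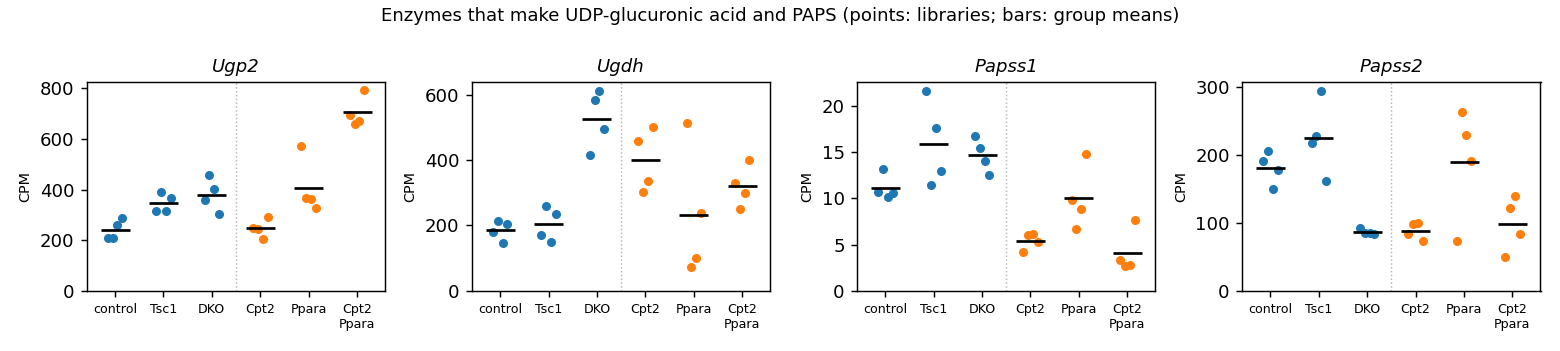
Each panel plots CPM for 1 gene of co-substrate supply in 6 genotypes, with points for libraries, bars for group means and colours for the 2 library sets. Ugdh is higher and Papss2 lower in Cpt2L-/- and DKO livers than in control and Tsc1L-/- livers.

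Of the 10 listed genes of co-substrate supply, 1 rose and 4 fell in Cpt2L-/- against control, 2 rose and 2 fell in DKO against Tsc1L-/-, and 1 rose and none fell in Cpt2L-/- Ppara KO against Cpt2L-/-. Of all genes tested, 31%, 32.2% and 18.4% were called in these 3 comparisons, and the counts of short lists are not read beyond them. Of 8 transporters that export or take up conjugates, 1 rose and 3 fell in Cpt2L-/- against control and 2 rose and 4 fell in DKO against Tsc1L-/-. Slco1a4, a sinusoidal uptake carrier of organic anions, fell by 3.44 in DKO against Tsc1L-/- and rose by 3.75 in Cpt2L-/- Ppara KO against Cpt2L-/-. Of 10 receptors and factors that sense xenobiotics and lipids, none rose and 3 fell in Cpt2L-/- against control, and 1 rose and 1 fell in DKO against Tsc1L-/-. In Ppara KO against control 4 of these 10 genes, a list that holds Ppara itself, fell and none rose, beside 13.2% of all genes lower. Nr1i3, the constitutive androstane receptor, fell by 1.28 there. Of 4 detected hydrolases of conjugates, 2 rose in Tsc1L-/- against control (6.64% of all genes called), among them Gusb, β-glucuronidase (log2 fold change 1.03), and 2 in Cpt2L-/- against control.

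Gene lists for liver zones and for sex differences were counted beside the members, and their part in the member results was not tested. Of 14 pericentral hepatocyte genes, 10 fell in Cpt2L-/- against control, 6 fell in DKO against Tsc1L-/- and 6 rose in Cpt2L-/- Ppara KO against Cpt2L-/-, with medians of −1.63, −0.54 and 1.18 on the log2 scale and no call in the other direction, beside 14.9% of all genes lower, 15.2% lower and 10.3% higher. In Tsc1L-/- against control 5 of the 14 fell and none rose (median −0.62), beside 2.48% of all genes lower, and 3 periportal genes rose and none fell, beside 4.16% of all genes higher. In Ppara KO against control 4 pericentral genes fell and 1 rose, and 4 periportal genes rose and 1 fell. Of all genes 13.2% were lower and 15.9% higher there. In DKO against Cpt2L-/- 2 pericentral genes rose and 5 periportal genes fell, beside 10.9% of all genes higher and 7.4% lower. Of 12 periportal genes, 3 fell and 1 rose in Cpt2L-/- against control and 8 fell in DKO against Tsc1L-/-. In Cpt2L-/- Ppara KO against Cpt2L-/- 4 rose. Of 17 male-biased genes, 6 fell and 1 rose, 6 fell and 2 rose, and 3 fell and 3 rose in the same 3 comparisons. In Cpt2L-/- Ppara KO against Ppara KO 9 fell and none rose (median −1.10), beside 12.6% of all genes lower. Of the female-biased genes, 12 of 20 were tested in the first fit and 13 in the second. In Cpt2L-/- against control 3 fell, in DKO against Tsc1L-/- 5 fell and 1 rose, and in Cpt2L-/- Ppara KO against Cpt2L-/- 2 fell and 5 rose.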

How the data were processed

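The authors deposited, for 24 mouse liver libraries, counts per gene (whole numbers, no normalization) and FPKM, which equalled the deposited counts divided by gene length and total count in 24 of 24 libraries within 0.1%. The libraries were stranded mRNA libraries per the labels. The submitters' processing notes name Bowtie 0.12.2, TopHat, STAR 2.5, HTSeq 0.6.1, edgeR, DESeq2 and STAR-Fusion without roles, and the builds mm8 and mm9, whereas the gene coordinates are those of GRCm38. How shared reads and strand were counted is not given in the sources used here. 

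Samples were grouped by the genotype in the labels. In R 4.3.3, edgeR 4.0.16 was used with TMM factors, filterByExpr (minimum count 10, minimum total count 15) and the robust quasi-likelihood test. One fit held control, Tsc1L-/-, Cpt2L-/- and DKO libraries (16 libraries, 13641 genes tested) and another control, Cpt2L-/-, Ppara KO and Cpt2L-/- Ppara KO libraries (16 libraries, 13615 genes). In each of 9 comparisons the Benjamini-Hochberg adjustment ran over all genes tested. CPM used TMM factors over the 24 libraries. Total counts per library were 14470968 to 20371204, and CPM have counting error in addition to the spread between libraries. The members and lists were chosen with earlier results of these data known. Named with values in every library were members called in at least 4 comparisons, the member with the largest rise and fall of each comparison at a mean of at least 1 CPM, and the 3 most abundant Ugt and Sult members in control. Named beside them were the deleted genes, the 4 co-substrate enzymes and called genes of the lists, up to 4 a list by size of change. 

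On simulated counts with 67 genes changed by 1 on the log2 scale, the test of Tsc1L-/- against control recovered 46 and that of Ppara KO against control 28. With 66 genes changed by 2, it recovered 64 and 58, and with 67 genes changed by 0.5, it recovered 7 and 0. Of the calls, 1.68% and 3.37% were false. No 2 libraries of a group were duplicates (36 pairs, chi-square per gene of 24.3 to 266). The alternatives were RLE size factors, no filter, DESeq2 1.42.0, all 24 libraries in a fit, the 8 libraries compared, the replicate number as a block, each library left out and, for levels, FPKM with TMM library sizes. Fits of the 12 libraries of each set, DKO against control, and counts without members that passed the filter in at most 2 genotypes, were added after the data were seen. Promoters were aligned with Biopython 1.88, windows of 75 bases were counted on GENCODE M21 transcripts, and figures were drawn with matplotlib 3.10.9.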

Additional observations from a re-analysis of the deposited data

Results flagged for a closer look

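A library that stood apart from the other 3 of its group was found for 10 of 138 combinations of gene and group examined, judged by its gap to the nearest of them relative to the range of the group (Dixon's 95% critical value). By construction this criterion is met by chance in about 1 in 20 groups. Tsc1L-/- replicate 2 was high for Sult1d1 (561 CPM) and Sult1e1 (3.39 CPM) and low for Ugt1a1 (17.3 CPM), and replicate 3 of that group was high for Sult2a7 (1.51 CPM). DKO replicate 2 was high for Sult5a1 (74.7 CPM), Cpt2L-/- replicate 4 for Ugt2b36 (264.1 CPM) and Cpt2L-/- Ppara KO replicate 2 for Ugt2b38 (10.5 CPM). Ppara KO replicate 4 was high for Sult2b1 (5.15 CPM) and Ugt1a7c (3.16 CPM), and Ppara KO replicate 2 for Ugt2b1 (533 CPM).

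The interaction of Cpt2 and Ppara deletion in edgeR passed the test for 8 of 24 members (33.3%), beside 24% of all genes. The interaction on the log2 scale was positive for Ugt3a1 (2.1), Sult1b1 (1.9), Sult5a1 (1.72), Sult1a1 (1.68), Ugt2b36 (1.26) and Ugt2b34 (0.97), and it was −2.76 for Ugt2b38. It was 5.45 for Sult2a7, which passed the low-count filter only through the control and Cpt2L-/- Ppara KO libraries, where it is high, so this value is a description. Without the members that passed through at most 2 genotypes, 6 were positive and 1 negative of 21. Control libraries are of the first library set and the other 3 groups of the second, so library set and interaction cannot be told apart here.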

How the results depend on the processing

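Of 67 calls of a member in a comparison, 43 held under every alternative and 24 were lost under at least 1, and none changed direction. The count of members called in Tsc1L-/- against control was 2 with all 24 libraries in the fit or with the 8 libraries alone, where the calls over all genes went from 906 to 400 and 466. In Cpt2L-/- Ppara KO against Ppara KO it was 0 with the 8 libraries alone (all genes 3475 and 111). In the interaction of Tsc1 and Cpt2 deletion DESeq2 called 1. Leaving out each library in turn gave 2 to 4 calls for Tsc1L-/- against control, 4 to 7 for DKO against Cpt2L-/-, 0 to 1 for the interaction of Tsc1 and Cpt2 deletion (1 without control replicate 3), 5 to 10 for Ppara KO against control and 4 to 9 for Cpt2L-/- Ppara KO against Ppara KO. The cause of these shifts was not tested. Deviations of same-numbered libraries from their group means had correlations of −0.258 to 0.17 and −0.093 to 0.224 in the 2 fits (medians −0.007 and 0.059). The numbers were therefore not taken as pairs, and shared litters or processing days were not tested. With the replicate number as a block the counts were 4, 13, 5 and 11 for Tsc1L-/- against control, Cpt2L-/- against control, DKO against Cpt2L-/- and DKO against Tsc1L-/-, 0 for their interaction, and 9, 10, 7 and 9 for Ppara KO against control, Cpt2L-/- Ppara KO against Cpt2L-/-, Cpt2L-/- Ppara KO against Ppara KO and the interaction of Cpt2 and Ppara deletion. Over all genes the block gave 808, 4033, 2333, 4180, 270, 3925, 2608, 3522 and 3307 calls in the same order, beside 906, 4235, 2494, 4392, 324, 3952, 2499, 3475 and 3270 without it. Members with a few counts, such as Sult2a7, are limited by depth.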
